A study of Mus musculus with 15 samples.

Results

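The cytochrome P450 genes of the mouse brain were studied as the 91 genes, of 26628 in the expression table, whose symbol has the form Cyp, a number, a letter and a number. RNA of the cerebellum (Ce) and of the striatum (St), both whole and from individual male mice of the Hsd:ICR strain, was sequenced in 4 groups: cerebellum (CeCo, 4 samples) and striatum (StCo, 4 samples) of a control line (Co), and cerebellum (CeHi, 4 samples) and striatum (StHi, 3 samples) of a line bred for high voluntary wheel running (Hi). All mice were labelled as 6 weeks of age and all had a running wheel for 7 days before dissection, so a wheel was part of the control condition too. Each line type was represented by a single line, so that selection and any other genetic difference between the lines cannot be told apart. The symbol rule leaves out P450 enzymes with other names (Cyp51, Ptgis and Tbxas1), which are given among the partner genes.

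Cytochrome P450 enzymes carry a heme group with which they insert oxygen into lipophilic molecules. The microsomal enzymes receive electrons from P450 oxidoreductase (Por) and cytochrome b5, and the mitochondrial enzymes from ferredoxin reductase (Fdxr) by way of ferredoxin (Fdx1). Most are best known from the liver, where they clear drugs, but several make or remove signals in the brain: neurosteroids, oxysterols, active vitamin D, retinoic acid and oxygenated fatty acids.

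Libraries held between 32909383 and 47485535 fragments, and values are normalized counts, in which 1 fragment was worth 0.841 to 1.30. Samples of each group are listed below in the order of their label numbers, from replicate 0. Of the 91 P450 genes, 22 (24.2%) reached 1 CPM (normalized counts scaled to 1000000 per sample) in 3 or more samples and were tested, against 57.1% of all genes. Another 29 were at 0 in every sample, and 51 in all (the 29 included) never exceeded 3 fragments in a sample. Most of those belong to the xenobiotic families: 37 of the 49 genes of drug and toxin metabolism never exceeded 3 fragments, among them all listed Cyp2c genes but Cyp2c44, all listed Cyp3a genes but Cyp3a13, and Cyp1a2. A count of 0 in a library allows up to 3 fragments, so these genes were not detectable at this depth rather than shown to be absent.

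Per kilobase of annotated exon, Cyp46a1 was the highest P450 gene in the striatum, with 3016 ± 129 normalized counts per kb (SD, n = 4) in StCo. Cyp2d22 was the highest in the cerebellum, with 923 ± 52.7 per kb in CeCo, followed by Cyp2j9 with 701 ± 35.2. The values of the 91 genes summed to between 11975 and 13186 normalized counts in the Ce samples and to between 17237 and 18392 in the St samples. Cyp46a1 alone held between 9084 and 10269 of the sum in St.

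**Figure D1:**
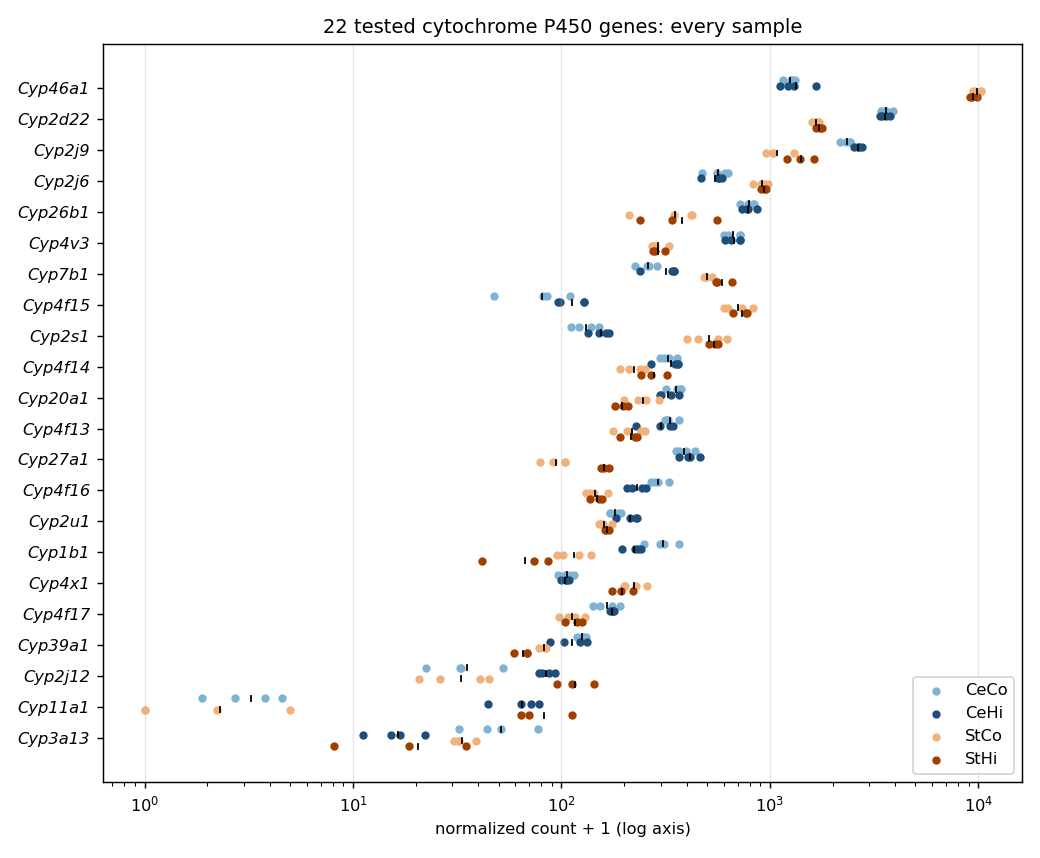
Normalized counts plus 1 (log axis) of the 22 tested P450 genes, ordered by mean level; each point is 1 sample, the short black bars are group means and colours mark the 4 groups. Cyp46a1 stands at 9084 to 10269 in St, and Cyp11a1 separates the Hi samples from the Co samples in both regions.

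Between the lines, 3 of the 22 tested P450 genes differed in the Ce: Cyp11a1 and Cyp2j12 were higher in CeHi and Cyp3a13 was lower (limma, FDR-adjusted P-value under 0.05). This rule called 5.94% of all tested genes, 2.94% as higher and 2.99% as lower. In the St 4 differed (2.66% of all tested genes, 1.49% higher and 1.17% lower), Cyp11a1, Cyp2j12 and Cyp27a1 being higher in StHi and Cyp1b1 lower. Averaged over regions 6 differed (8.48% of all tested genes, 4.34% higher and 4.14% lower), with Cyp11a1, Cyp2j12, Cyp27a1 and Cyp2j9 higher in Hi and Cyp3a13 and Cyp1b1 lower. The other 16 had log2 (fold change between lines) from -0.27 to 0.29, averaged over regions. Cyp11a1 reached the count filter only in the 7 Hi samples and Cyp3a13 only in 3 CeCo samples, and such genes had to differ to be tested. Cyp2j12 reached it in 9 samples, all 7 Hi samples among them, so its Co samples alone would not have passed it. The number called is therefore no measure of how the family behaved.

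**Figure D2:**
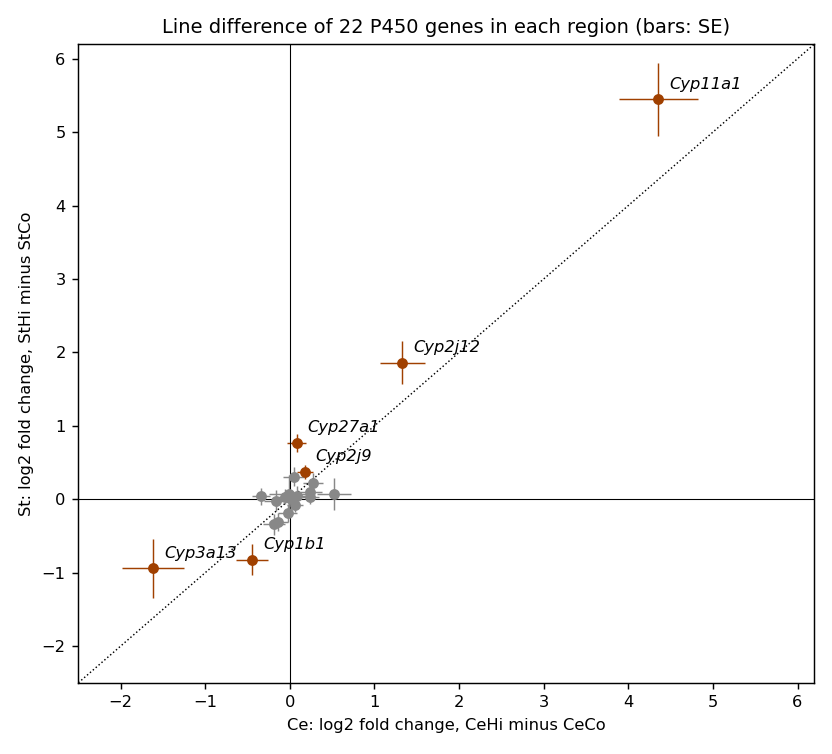
Difference between lines as log2 fold change (Hi minus Co) on the horizontal axis for Ce and on the vertical axis for St, for the 22 tested P450 genes; bars are SE, the dotted line marks equal differences, and the named genes in colour passed the test averaged over regions. Cyp11a1 lies at 4.36 in Ce and 5.45 in St, and Cyp2j12 at 1.33 and 1.86.

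Between the regions, 19 of the 22 differed averaged over lines, a share to be read against 80.2% of all tested genes. Of these 13 were higher in the Ce (40.6% of all tested genes) and 6 in the St (39.6%). Samples of the regions did not overlap for 18 of the 22 in Co (69.9% of all tested genes) and for 18 in Hi (68.3%). The strongest striatal genes were Cyp4f15 (log2 difference of Ce minus St -2.95), Cyp46a1 (-2.92) and Cyp2s1 (-1.89), and the strongest cerebellar genes were Cyp27a1 (1.69), Cyp1b1 (1.61) and Cyp4v3 (1.21). The regions hold different cells, and in whole tissue more cells of a type and more RNA per cell cannot be told apart. The region labels matched their defining cells: 4 of 4 granule neuron and 4 of 4 Purkinje cell markers were higher in Ce, and 6 of 6 markers of striatal spiny neurons were higher in St.

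**Figure D3:**
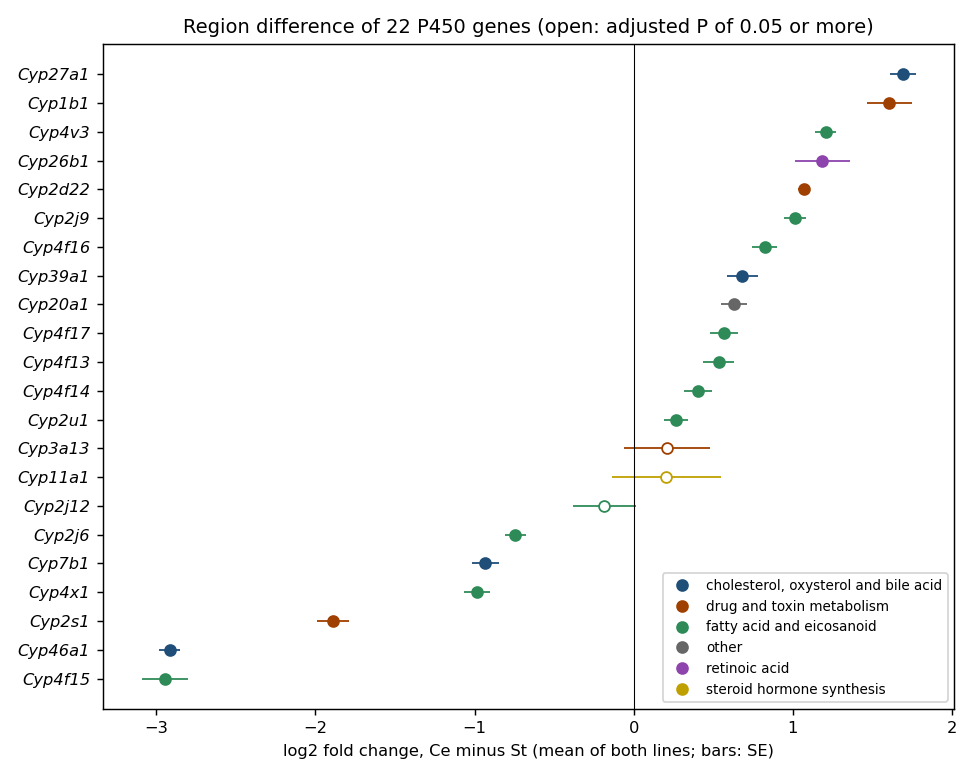
Region difference as log2 fold change (Ce minus St, averaged over lines; bars are SE) of the 22 tested P450 genes, coloured by role. Filled points passed the test; Cyp4f15, Cyp46a1 and Cyp2s1 lie farthest to the striatal side and Cyp27a1 and Cyp1b1 farthest to the cerebellar side, while Cyp3a13, Cyp11a1 and Cyp2j12 (open) did not pass.

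Among the 6 genes of steroid hormone synthesis, Cyp11a1 was the only one tested. It encodes the mitochondrial enzyme that cleaves the cholesterol side chain to pregnenolone, the entry step of steroid synthesis, and lies at chr9:58006411-58027023 on the plus strand (GRCm38). In the Ce it had 2.80, 0.892, 1.71 and 3.56 normalized counts in CeCo and 70.6, 77.0, 63.0 and 43.3 in CeHi. Its St values were 1.23, 3.96, 0 and 0 in StCo and 112, 63.1 and 68.9 in StHi. The lines did not overlap in either region: no Co sample passed 4 and no Hi sample was below 43. The log2 (fold change) was 4.36 ± 0.46 (SE) in Ce (FDR-adjusted P-value = 1.19e-05) and 5.45 ± 0.50 in St (FDR-adjusted P-value = 3.22e-06).

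Because the Co libraries held few fragments, the fold of Cyp11a1 depends on the pseudocount, and it is better bounded by the fragments themselves. The 4 CeCo libraries held 10 fragments and the 4 CeHi libraries 266, a ratio of 28.6 (95% exact interval 15.3 to 60.3). The 4 StCo libraries held 5 and the 3 StHi libraries 209, a ratio of 61.7 (26.0 to 192). These intervals, like those below, cover counting error only. The interaction of line and region was not called for Cyp11a1 (log2 difference -1.09 ± 0.68, FDR-adjusted P-value = 0.69), and neither was the region (0.21 ± 0.34). The annotation places the gene Gm17322 over part of Cyp11a1, and 2.06% of the 50-base windows of its transcripts occur in another gene.

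The 3 P450 genes that were higher in Hi in both regions are Cyp11a1, Cyp2j12 and Cyp2r1 (the last is described under vitamin D). The 250 bases before their RefSeq starts (GRCm38.p6) are shown because each gene was called in both regions, which is the rule that chose them. Only in the Hi groups did Cyp11a1 and Cyp2r1 exceed 3 fragments in every library, and Cyp2j12 passed the count filter through its Hi samples. The bases are reference sequence and not that of either line. Cyp11a1 has 2 listed starts, and its windows are chr9:57997774-57998023 and chr9:58014702-58014951 (plus strand). Neither adjoins the start of the gene position given above, 58006411, which comes from GENCODE. The upstream window ends before that position and the downstream window lies within the gene. The window of Cyp2j12 is chr4:96141153-96141402 and that of Cyp2r1 chr7:114562973-114563222 (both minus strand). Each is written 5′ to 3′ along its gene, and capitals mark matches on either strand to the TATA box letters TATAA, to the CCAAT box, to the GC box GGGCGG or to AGGTCA (an element bound by nuclear receptors).
Cyp11a1, upstream start: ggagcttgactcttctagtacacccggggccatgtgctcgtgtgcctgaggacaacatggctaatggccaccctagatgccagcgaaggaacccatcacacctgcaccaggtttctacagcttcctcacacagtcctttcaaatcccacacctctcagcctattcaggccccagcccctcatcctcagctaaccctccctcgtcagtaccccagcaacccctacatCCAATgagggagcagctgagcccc
Cyp11a1, downstream start: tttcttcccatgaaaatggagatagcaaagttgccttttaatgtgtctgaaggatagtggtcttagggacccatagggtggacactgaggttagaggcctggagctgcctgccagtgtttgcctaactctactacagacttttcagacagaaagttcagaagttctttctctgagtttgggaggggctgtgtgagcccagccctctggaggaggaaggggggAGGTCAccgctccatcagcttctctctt
Cyp2j12: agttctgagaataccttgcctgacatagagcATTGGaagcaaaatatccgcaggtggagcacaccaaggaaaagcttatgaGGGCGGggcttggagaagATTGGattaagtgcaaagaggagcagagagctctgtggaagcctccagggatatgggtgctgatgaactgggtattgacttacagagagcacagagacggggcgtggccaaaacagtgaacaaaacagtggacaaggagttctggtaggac
Cyp2r1: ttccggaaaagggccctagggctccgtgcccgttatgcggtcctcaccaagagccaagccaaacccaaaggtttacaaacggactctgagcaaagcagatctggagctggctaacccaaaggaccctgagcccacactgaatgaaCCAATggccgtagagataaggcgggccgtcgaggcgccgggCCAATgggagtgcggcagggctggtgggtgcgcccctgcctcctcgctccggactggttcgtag

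The upstream Cyp11a1 window held 1 CCAAT match, from 24 to 20 bases before the start, and the downstream window 1 AGGTCA match, from 28 to 23 bases before it. Cyp2j12 held 2 CCAAT matches on the other strand and 1 GC box, and Cyp2r1 held 2 CCAAT matches. None of the 4 windows held TATAA. Of 32851 windows of this length in the table, 33.8% held CCAAT, 32.7% GGGCGG, 22.8% TATAA and 14% AGGTCA on either strand, so these letters are common, and a match is a description of the sequence and not evidence of a bound factor. The table had windows for 70 of the 91 genes.

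The other genes of steroid synthesis were near the floor. Cyp19a1, the aromatase that makes estradiol, had no fragment in the 4 CeCo libraries and 44 in the 4 StCo libraries, which is at least 15.7-fold higher in StCo when CeCo is set to 3 fragments over the group. In Hi it had 2 fragments in CeHi and 41 in StHi (ratio 30.1, 7.81 to 257). Its St values did not separate the lines: 11.1, 10.9, 15.8 and 8.23 in StCo against 9.08, 25.2 and 9.50 in StHi. Cyp17a1, which leads to androgens, had 12, 7, 1 and 2 fragments in CeCo, CeHi, StCo and StHi, and Cyp11b1, Cyp11b2 and Cyp21a1 of the corticosteroid pathway never exceeded 3 fragments in a library.

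Of 16 other genes of the steroid pathway, 10 were tested, of which 6 were higher in the Ce (40.6% of all tested genes) and 3 in the St (39.6%). Star, which delivers cholesterol to the inner mitochondrial membrane where Cyp11a1 works, had 611 ± 38.9 (SD, n = 4) in CeCo and 591 ± 67.7 in CeHi (log2 -0.06, FDR-adjusted P-value = 0.76). Stard3, another cholesterol carrier, was the one called between lines, by 0.14 averaged over regions (FDR-adjusted P-value = 0.0475). The enzymes that act on pregnenolone next, Hsd3b1, Hsd3b2 and Hsd3b6, had group means below 1 normalized count in all 4 groups. Hsd11b1, which regenerates active glucocorticoid, had the largest region difference of the list, with 2694 ± 376 in CeCo and 246 ± 35.3 in StCo (log2 3.38, FDR-adjusted P-value = 1.00e-16).

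The 6 genes of cholesterol, oxysterol and bile acid metabolism were led by Cyp46a1, the neuronal cholesterol 24-hydroxylase through which the brain disposes of cholesterol (chr12:108334381-108362234). It had 1277, 1158, 1322 and 1259 normalized counts in CeCo and 10269, 9697, 9422 and 10265 in StCo. The Hi samples had 1215, 1120, 1304 and 1670 in CeHi and 9084, 9299 and 9826 in StHi. All St samples lay far above all Ce samples, by 7.55-fold averaged over lines (log2 -2.92 ± 0.07, FDR-adjusted P-value = 2.26e-16). The lines overlapped in both regions, and the normal-approximation 95% interval of the log2 difference between them averaged over regions was -0.14 to 0.12.

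Cyp27a1, the mitochondrial sterol 27-hydroxylase (chr1:74713574-74737892), was higher in StHi than in StCo but was not called in the Ce. The St samples had 90.1, 78.1, 103 and 103 in StCo and 158, 168 and 153 in StHi. In the Ce it had 364, 434, 394 and 354 in CeCo and 404, 365, 462 and 412 in CeHi. The lines were apart in St (log2 0.77 ± 0.12, FDR-adjusted P-value = 0.00095) and overlapped in Ce (0.08 ± 0.11, FDR-adjusted P-value = 0.74). The interaction missed the threshold in limma (-0.69 ± 0.16, FDR-adjusted P-value = 0.0696) and in edgeR (0.0729) and passed it with sample weights (0.0452) and in DESeq2 (0.0151). Of 3 oligodendrocyte markers, 1 was called between lines averaged over regions, Mbp (0.35, FDR-adjusted P-value = 0.0208), while Mag (0.23, 0.20) and Mog (-0.22, 0.53) were not. The summed markers, most of which is Mbp, were 112050 to 165930 in StCo and 173890 to 198280 in StHi. Between regions Cyp27a1 was higher in Ce (1.69), whereas all 3 markers were higher in St (Mbp -0.30, Mag -0.55, Mog -0.48). The part of these markers' cells in the Cyp27a1 difference between lines was not tested.

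Cyp7b1 and Cyp39a1, the oxysterol 7-alpha-hydroxylases, differed between regions in opposite directions. Cyp7b1 was higher in St (498 ± 18.4 in StCo, 258 ± 25.0 in CeCo, log2 -0.93 ± 0.09, FDR-adjusted P-value = 1.87e-08). Cyp39a1 was higher in Ce (124 ± 5.29 in CeCo, 81.2 ± 2.78 in StCo, log2 0.68 ± 0.10, FDR-adjusted P-value = 5.43e-06). Neither was called between lines in limma, although the lines did not overlap in St for either gene: Cyp7b1 was higher in StHi (588 ± 61.4) and Cyp39a1 lower (64.2 ± 5.23). Not overlapping was common: 13.1% of all tested genes had it in St. With sample weights, in DESeq2 and without CeHi replicate 1, Cyp7b1 was called averaged over regions. Cyp8b1, a bile acid enzyme, had 2 fragments in CeCo and 33 in StCo (ratio 17.6, 4.51 to 152), and the liver enzyme Cyp7a1 never exceeded 3 fragments.

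None of the 3 vitamin D genes reached the count filter, and they were fitted with no filter, where 4.02% of 21831 genes were called between lines in Ce, 2.21% in St and 6.36% averaged over regions, and 66.2% between regions. Cyp2r1, the vitamin D 25-hydroxylase (chr7:114549682-114562972), was higher in Hi in both regions. It had 0.932, 0.892, 3.41 and 0.891 in CeCo and 5.89, 8.44, 7.41 and 7.4 in CeHi. In the St the values were 2.47, 2.97, 2.1 and 4.57 in StCo and 16.9, 20.4 and 19.0 in StHi. The lines did not overlap in either region. Its log2 (fold change) was 1.81 ± 0.30 in Ce (FDR-adjusted P-value = 0.0015) and 2.32 ± 0.33 in St (FDR-adjusted P-value = 0.00052). These rest on few fragments, 7 against 30 in Ce (ratio 4.61, 1.98 to 12.4) and 12 against 50 in St (6.15, 3.23 to 12.7).

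Cyp27b1, which makes the active hormone, was not called between lines (0.36 ± 0.24 averaged over regions, FDR-adjusted P-value = 0.47). It was higher in St, with 27 fragments in CeCo and 107 in StCo (ratio 4.24, 2.76 to 6.72) and 39 in CeHi and 77 in StHi (2.90, 1.95 to 4.37). Cyp24a1, which inactivates the hormone, had 4 and 14 fragments in CeCo and StCo, and its region call (log2 -1.23, FDR-adjusted P-value = 0.0130) was lost with a pseudocount of 0.1 (0.0779). Vdr, the vitamin D receptor, fell in the Hi line in the Ce from 109 ± 17.8 (SD, n = 4) to 10.5 ± 3.07 (log2 -3.30, FDR-adjusted P-value = 7.22e-08) and had 40.2 ± 7.55 in StCo and 30.8 ± 5.14 in StHi (n = 3). Its interaction was called (-2.93, FDR-adjusted P-value = 0.00038), so for this receptor the line difference itself differed between regions.

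Cyp26b1 was the one tested gene of the 3 that degrade retinoic acid. It had 720, 784, 839 and 830 in CeCo, and 772, 783, 735 and 864 in CeHi. In the St it had 422, 418, 210.0 and 345 in StCo, and 554, 238 and 338 in StHi. All Ce samples exceeded all St samples (log2 1.19 ± 0.17, FDR-adjusted P-value = 1.55e-05), whereas the lines overlapped in both regions and the St samples varied among themselves. Cyp26a1 was the reverse, with 1 fragment in CeCo and 48 in StCo (ratio 51.3, 8.78 to 2070) and 4 in CeHi and 38 in StHi (13.9, 5.02 to 53.7). Cyp26c1 never exceeded 3 fragments. Of the receptors, Rarb (-2.85) and Rxrg (-7.53) were also higher in St, and Rara was higher in Ce (1.07) and lower in CeHi (511 ± 54.8) than in CeCo (806 ± 161, log2 -0.65, FDR-adjusted P-value = 0.0077).

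Of the 23 fatty acid and eicosanoid genes 11 were tested, 7 of them being higher in Ce (40.6% of all tested genes), 3 in St (39.6%) and Cyp2j12 in neither. The Cyp2j enzymes, which epoxidize arachidonic acid, lie together on chromosome 4. Cyp2j12 (chr4:96099318-96141152) was higher in Hi in both regions. It had 31.7, 21.4, 51.2 and 32.1 in CeCo and 85.8, 77.0, 92.6 and 79.3 in CeHi. Its St values were 39.5, 19.8, 25.2 and 43.9 in StCo and 112, 142 and 93.8 in StHi. The lines did not overlap in either region, the highest Co sample lying at 51.2 and the lowest Hi sample at 77.0. The log2 (fold change) was 1.33 ± 0.27 in Ce (FDR-adjusted P-value = 0.0054) and 1.86 ± 0.29 in St (FDR-adjusted P-value = 0.00096), or 3.02-fold averaged over regions.

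Compared with Cyp2j12, Cyp2j9 (chr4:96568429-96591578) was far more abundant and differed less. It had 2431, 2423, 2179 and 2321 in CeCo and 2663, 2766, 2652 and 2537 in CeHi. The St samples had 1312, 1035, 1034 and 963 in StCo and 1628, 1392 and 1209 in StHi. The lines were apart in Ce and overlapped in St, and the difference passed the test averaged over regions (0.27 ± 0.07, FDR-adjusted P-value = 0.0168) but not in Ce (FDR-adjusted P-value = 0.30) or in St (0.0572) alone. In St it passed with the replicate block, in DESeq2, and without StCo replicate 0 or StHi replicate 2. Cyp2j6 (chr4:96516138-96553661), between these genes, had 566 ± 69.6 in CeCo and 547 ± 55.4 in CeHi, and 913 ± 65.9 in StCo and 938 ± 31.3 in StHi. Cyp2j6 was higher in St (-0.74 ± 0.07) while Cyp2j9 was higher in Ce (1.01 ± 0.07). Of the remaining Cyp2j genes, Cyp2j8 had 9 to 17 fragments per group and Cyp2j5 was at 0 throughout.

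**Figure D4:**
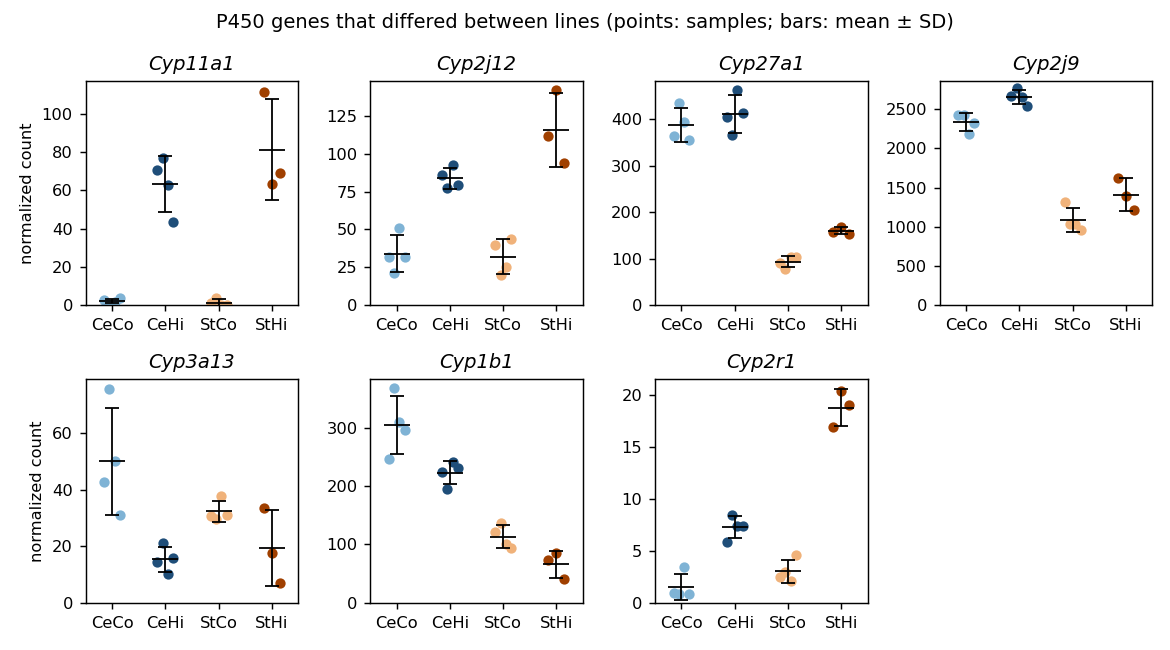
Normalized counts (vertical axes start at 0) of the 7 P450 genes that differed between lines, by group; points are samples and bars are mean ± SD. Cyp11a1, Cyp2j12 and Cyp2r1 have all Hi samples above all Co samples in both regions, whereas Cyp27a1 is raised in StHi and Cyp3a13 has all CeHi samples and 2 of the 3 StHi samples below all Co samples.

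The Cyp4f genes, omega-hydroxylases of fatty acids and leukotrienes, lie in a cluster on chromosome 17, except Cyp4f18 on chromosome 8, and the members of the cluster differed in region. Cyp4f15 (chr17:32685627-32703352) had 80.2, 84.7, 109 and 46.3 in CeCo and 602, 736, 833 and 632 in StCo. The Hi samples had 97.5, 94.9, 127 and 127 in CeHi and 764, 777 and 661 in StHi. All St samples exceeded all Ce samples, by 7.70-fold averaged over lines (log2 -2.95 ± 0.15, FDR-adjusted P-value = 9.11e-12). The other 4 tested genes of the cluster were higher in the Ce: Cyp4f16 (0.82), Cyp4f17 (0.57), Cyp4f13 (0.53) and Cyp4f14 (0.40). Of the windows of Cyp4f16, 17.4% occur in another gene, so its reads may be split between copies.

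No Cyp4f gene was called between lines in limma with all samples. Cyp4f16 had 268, 279, 291 and 326 in CeCo and 218, 206, 255 and 243 in CeHi, which do not overlap (13.3% of all tested genes did not overlap in Ce). Its log2 difference was -0.34 ± 0.11 (FDR-adjusted P-value = 0.0751), and DESeq2 called it. Cyp4f15 gave 0.52 ± 0.20 in Ce (FDR-adjusted P-value = 0.15) and was called there without CeCo replicate 2.

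Cyp4v3, Cyp4x1 and Cyp2u1 showed a region difference and were not called between lines. Cyp4v3, an omega-hydroxylase of membrane fatty acids, had 602, 718, 719 and 631 in CeCo and 275, 327, 279 and 271 in StCo. In Hi it had 651, 606, 717 and 722 in CeHi and 281, 314 and 274 in StHi, so that the regions were apart in both lines (log2 1.21 ± 0.07, FDR-adjusted P-value = 1.62e-11). Cyp4x1 was the reverse, with 103, 114, 108 and 95.3 in CeCo and 227, 256, 202 and 199 in StCo. In Hi it had 104, 108, 104 and 98.3 in CeHi and 192, 174 and 218 in StHi (log2 -0.99 ± 0.08, FDR-adjusted P-value = 5.41e-09). An antisense transcript, Cyp4x1os, overlaps Cyp4x1, and the counting is not stated to use strand. Cyp2u1, a fatty acid hydroxylase, differed least of the called genes (0.27 ± 0.07). Cyp4b1, below the filter, had 3 fragments in CeCo and 75 in StCo (ratio 26.7, 8.80 to 133), and 8.26% of its windows occur elsewhere.

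Of the 49 genes of drug and toxin metabolism 4 were tested. Cyp2d22, the main brain member of the Cyp2d family here, had 3421, 3897, 3598 and 3512 in CeCo and 1660, 1704, 1723 and 1588 in StCo. In Hi it had 3605, 3454, 3789 and 3373 in CeHi and 1774, 1747 and 1668 in StHi. The regions were apart (log2 1.07 ± 0.04, FDR-adjusted P-value = 4.65e-14). The normal-approximation 95% interval of the difference between lines averaged over regions was -0.06 to 0.08. Cyp2s1, an epithelial enzyme that also acts on retinoids and eicosanoids, was higher in St. It had 120, 110, 150 and 138 in CeCo, 168, 133, 162 and 151 in CeHi, 622, 400, 449 and 561 in StCo, and 512, 547 and 563 in StHi. No Ce sample reached the lowest St sample (log2 -1.89 ± 0.10, FDR-adjusted P-value = 1.16e-11).

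Cyp1b1, which hydroxylates estradiol and is induced through the aryl hydrocarbon receptor (Ahr), was lower in Hi and higher in Ce. It had 247, 367, 309 and 297 in CeCo and 224, 195, 241 and 231 in CeHi. In the St the values were 121, 137, 101 and 94.2 in StCo and 72.6, 85.5 and 40.4 in StHi. The lines did not overlap in either region, although the gap was narrow. The log2 (fold change) was -0.45 ± 0.19 in Ce (FDR-adjusted P-value = 0.21), -0.82 ± 0.21 in St (0.0447) and -0.64 ± 0.14 averaged over regions (0.0094). The call in St was lost in 17 of 25 alternatives, among them the replicate block (0.0503) and leaving out StHi replicate 2 (-0.51, 0.19), whereas the call averaged over regions held in all 24 alternatives run.

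Of 3 smooth muscle markers, 2 were lower in Hi averaged over regions, as Cyp1b1 was: Acta2 (-0.62, FDR-adjusted P-value = 0.0052) and Myh11 (-0.55, 0.0265). Tagln (-0.24, 0.23) was not called. Between regions the direction was opposite: Acta2 (-0.35, 0.0165) and Myh11 (-0.68, 0.00044) were higher in St, and Cyp1b1 in Ce. Summed, the 3 markers were 502 to 701 in CeCo, 431 to 468 in CeHi, 626 to 1075 in StCo and 505 to 579 in StHi. The StHi sample with the lowest Cyp1b1, replicate 2, also had the highest summed choroid plexus markers of the St samples, 18025 against 1267 to 3398. In the Ce these sums were 78690, 1323, 116020 and 35891 in CeCo, where Cyp1b1 had 247, 367, 309 and 297. They were 959, 112640, 87864 and 12329 in CeHi, where Cyp1b1 had 224, 195, 241 and 231. Meningeal fibroblast markers were higher in Ce for 6 of 6 genes, as Cyp1b1 was (1.61 ± 0.14). Averaged over regions all 6 were also lower in Hi (log2 -0.37 to -0.18), but none was called (smallest FDR-adjusted P-value 0.0677 in limma). The part of these cells in the Cyp1b1 differences was not tested. Ahr itself was not called between lines (-0.13 averaged over regions).

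Cyp3a13, the one Cyp3a gene above the floor (chr5:137892932-137921619), was lower in CeHi. It had 42.9, 75.8, 50.3 and 31.2 in CeCo and 14.3, 21.1, 10.2 and 15.9 in CeHi, which do not overlap. In the St it had 30.9, 29.7, 37.8 and 31.1 in StCo and 33.7, 17.5 and 7.12 in StHi, which do. The log2 (fold change) was -1.62 ± 0.37 in Ce (FDR-adjusted P-value = 0.0136) and -0.94 ± 0.40 in St (0.28). In fits with no filter, the call in Ce was lost without CeCo replicate 1 (-1.39, 0.0641) or without CeHi replicate 2 (-1.44, 0.0558). Gm15502 overlaps Cyp3a13.

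Among genes of this role outside the filter, Cyp2a5, a nicotine and coumarin hydroxylase, had no fragment in CeCo and 90 in StCo (at least 32.1-fold higher in StCo), and 4 in CeHi and 84 in StHi (ratio 30.8, 11.6 to 116). Of its windows 37.0% occur in another gene, chiefly Cyp2a4, so its reads cannot be assigned with certainty. Cyp2c44, an arachidonic acid epoxygenase, had 1 fragment in CeCo and 45 in StCo (ratio 48.1, 8.21 to 1940). Cyp2e1, the ethanol-metabolizing enzyme, had 44 fragments in CeCo and 39 in StCo (ratio 0.948, 0.600 to 1.49), and Cyp2t4 had 56 and 31 (0.592, 0.369 to 0.934); neither was called between regions averaged over lines (FDR-adjusted P-value = 0.75 and 0.082). Cyp2f2 had 33 fragments in CeCo against 3 to 5 in each other group, and no group had more than 3 in every library.

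Cyp20a1, an enzyme of unknown substrate, had 354 ± 25.5 in CeCo and 324 ± 32.7 in CeHi, and 244 ± 38.7 in StCo and 195 ± 14.2 in StHi. It was higher in Ce (0.63 ± 0.08, FDR-adjusted P-value = 2.13e-06) and was not called between lines (-0.23 ± 0.08, FDR-adjusted P-value = 0.11), although it was called with sample weights and without StCo replicate 0.

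For the interaction of line and region, limma without sample weights and edgeR called none of the 22 genes (0.532% of all tested genes were called in this limma fit). Cyp27a1 was called by limma with sample weights and by DESeq2. At an unadjusted P-value under 0.05 limma without weights gave 2, Cyp27a1 (0.00055) and Cyp4f16 (0.0280). A line difference called in one region and not in the other, as for Cyp3a13 and Cyp1b1, was therefore not shown to differ between regions.

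Partner genes were given from lists of 52 genes. Of 9 electron donors and heme carriers, all tested, 7 were higher in St and 2 in Ce (for this and the lists below, 39.6% and 40.6% of all tested genes were). Por, the donor of the microsomal enzymes, had 1952 ± 245 in CeCo and 3421 ± 291 in StCo (-0.84), whereas the mitochondrial donors Fdx1 (0.50) and Fdxr (1.07) were higher in Ce. Fdx1l, the other mitochondrial ferredoxin, was higher in St (-1.08, FDR-adjusted P-value = 2.92e-11). Fdxr was lower in CeHi (670 ± 28.7) than in CeCo (848 ± 74.8, log2 -0.34, FDR-adjusted P-value = 0.0313). Averaged over regions, cytochrome b5 (0.19, FDR-adjusted P-value = 0.0199) and Pgrmc2 (0.11, 0.0353), a heme carrier, were higher in Hi.

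Of 8 heme synthesis genes 3 were higher in Ce and 3 in St. Alad, the second enzyme of the pathway, was higher in Hi in both regions (0.27, FDR-adjusted P-value = 0.0359 in Ce, and 0.43, 0.0051 in St), and Fech, the last, was lower averaged over regions (-0.20, 0.0141). The rate-limiting Alas1 was not called. Of 16 regulators 12 were tested, with 4 higher in Ce and 6 in St. Between lines in the Ce, Rxra was higher (0.29, FDR-adjusted P-value = 0.0028) and Vdr, Rara and Arnt (-0.20, 0.0454) were lower. The xenobiotic receptors Nr1i2 and Nr1i3 had group means of at most 1.05 normalized counts. Of the 3 P450 enzymes with other symbols, Cyp51 (-0.20) and Tbxas1 (-0.72) were higher in St, and no line contrast was called in limma, the smallest FDR-adjusted P-value being 0.0651 for Tbxas1.

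Of 57 tested cell type markers 5 differed between lines averaged over regions, a share to be read against 8.48% of all tested genes: Acta2, Myh11 and Mbp above, 1 of 5 astrocyte markers (higher in Hi) and 1 of 4 microglial markers (lower). The summed choroid plexus markers spanned 1323 to 116020 in CeCo and 959 to 112640 in CeHi, ranges that overlap almost whole. In St they spanned 1267 to 1786 in StCo and 1778 to 18025 in StHi, ranges that barely overlap. No choroid plexus marker was called between lines, and the part of this tissue in the line differences in St was not tested. Mast cell markers were at most 4.45 in sum.

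Neighbours of the genes that differed between lines were counted within 300 kb, to be read against the 8.48% of all tested genes called averaged over regions. Near Cyp3a13, 4 of 21 tested genes were called, among them Zkscan1 (-0.91, FDR-adjusted P-value = 0.0002) and Cnpy4 (0.51, 6.74e-05). Near Cyp11a1 2 of 12 were called, 1600029O15Rik (-1.01) and Pml (-0.50), both lower in Hi while Cyp11a1 was higher. Of these, 1600029O15Rik was near the floor in Ce (mean 1.58 in CeCo and 0.21 in CeHi) and was called in neither region alone. Near Cyp27a1 2 of 13 were called, Usp37 (0.20) and Plcd4 (0.43), both higher. For Cyp1b1 1 of 2 was called, for Cyp2r1 1 of 4, for Cyp2j9 not the 1 gene there and, in limma, for Cyp2j12 no gene of 3 (smallest FDR-adjusted P-value 0.13).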

How the data were processed

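RNA was extracted from whole cerebellum and striatum and sequenced in paired ends. Per the submitters' processing notes and the study's methods, the authors aligned the reads with TopHat2 to GRCm38, and Cuffnorm 2.2.1 corrected the counts of genes for library size. The deposited column of each sample is thus a signal of fragments divided by 1 factor, with no division by length. This was checked: in each sample 99.6% to 99.8% of low values lay within 0.1 of a whole number of steps, counted from the commonest low value. A search from the lowest value of a sample found the step in 10 of 15 samples, so fragments of the other 5 rest on the first check alone.

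Genes with 1 CPM (normalized counts scaled to 1000000 per sample) in at least 3 samples were kept (15213), scaled by trimmed mean of M-values (factors 0.993 to 1.01) and tested as log2 (value + 1), so that a fold change understates that of a low gene. limma 3.58.1 in R 4.3.3 fitted the 4 group means over all 15 samples, trended and robust, with Benjamini-Hochberg adjustment over all tested genes. The design set the quasi-likelihood test of edgeR for counts; because the values are scaled, edgeR 4.0.16 and DESeq2 1.42.0 were alternatives, on fragments recovered by dividing by the step. Genes outside the filter were fitted with no filter and are given as fragments, summed over libraries, with exact binomial intervals of the ratio corrected for depth. A gene is at the floor at 3 fragments or fewer. Interactions are (CeHi minus CeCo) minus (StHi minus StCo). Intervals of log2 differences were taken from the SE by a normal approximation, so they are narrower than the t distribution of the limma test would give.

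The genes, roles, 14 marker lists and 5 partner lists were chosen with earlier results of these data known. One gene of the marker lists is not reported here and was left out of their counts and sums. P450 genes described with every sample are those called between lines, those with the 10 largest region differences and the 3 highest per kilobase; exceptions, such as Cyp4f16, were chosen after their values were seen. Positions and exon lengths come from GENCODE for GRCm38, in which 89 of the 91 symbols were found and 1 more under another symbol. Alternatives covered the pseudocount (0.1), the filter (none, or 5 CPM), the scaling (none, median of ratios), sample quality weights, a replicate block, each region alone and each sample left out; those for genes outside the filter and the fits of Cyp3a13 without it were chosen after seeing the data. The scripts were tested on simulated data. Replicate libraries differed by more than sampling noise (chi-square per degree of freedom 9.72 to 37.4), and the labels do not say whether a cerebellum and a striatum came from 1 mouse. A StHi sample that the authors removed was not analysed here.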

Additional observations from a re-analysis of the deposited data

Results flagged for a closer look

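In 99 sets of 4 samples (a P450 gene in a group), 7 held a sample far from the other 3, where chance alone gives about 1 set in 20. CeHi replicate 1 was lowest for Cyp7b1 (236 against 337 to 347) and for Cyp4f14 (269 against 351 to 363); without this replicate, Cyp7b1 was called between lines in Ce. StCo replicate 1 was highest for Cyp4v3 (327 against 271 to 279). The other sets rest on few fragments: CeCo replicate 3 was lowest for Cyp2e1 (6.23 against 10.7 to 11.2) and had the one value of Cyp26a1 above 0 (0.891), and CeCo replicate 2 was highest for Cyp2r1 (3.41 against 0.891 to 0.932) and had the one value of Cyp2c44 above 0 (0.853).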

How the results depend on the processing

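Of 1055 alternatives to 45 single results, 1033 kept direction and side of the threshold, 20 lost the call, 2 gained it and none reversed. Those lost were 17 for Cyp1b1 in St, 2 for Cyp3a13 in Ce and 1 for Cyp24a1 between regions, and those gained were the Cyp27a1 interaction. Only results already called were followed, plus that interaction, so a gain could be counted for it alone. The line calls gained by Cyp7b1, Cyp2j9, Cyp4f16, Cyp4f15 and Cyp20a1, given above, are outside this tally, which is no measure of stability for genes not called. With a filter at 5 CPM, 0, 1 and 3 genes were called between lines in Ce, in St and on average, since Cyp11a1, Cyp2j12 and Cyp3a13 were no longer tested, and Cyp1b1 was no longer called in St (0.0584). The interaction called 1 gene with sample weights and 1 with DESeq2. With no filter 62 of the P450 genes were tested and 31 differed between regions, a share to be read against 66.2% of 21831 genes. Leaving out each sample in turn gave 2 to 4 genes in Ce, 3 to 4 in St, 5 to 7 on average, 0 to 0 for the interaction and 19 to 19 between regions. Cyp3a13 fell below the filter without CeCo replicate 0, 1 or 2.

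Same-numbered Ce and St samples correlated in their deviations at 0.171 to 0.278 in Co, where all 4 matched best with their own number, and at -0.0751 to 0.0513 in Hi. Not every pair passed 0.1, so the numbers were not taken as pairs, although those of Co may be. With a replicate block the counts were 3, 4, 6, 0 and 19, and in St Cyp2j9 was called in place of Cyp1b1. The block used the replicate number in both lines together, so it did not stand for a mouse. No line difference was fitted with mice as pairs. If the numbers are pairs, a line difference averaged over regions counted both regions of a mouse as independent. The depth limits the genes under 3 fragments, and 1 line of each kind limits what a line difference describes.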
